A study of Mus musculus with 23 samples.

Results

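The lowest RNA input of a low-input RNA sequencing protocol, 0.1 ng, was compared with the highest, 5 ng, gene by gene. The comparison used the 2 libraries at 0.1 ng and the 3 libraries at 5 ng, which are 5 of the 23 libraries of the series. All 22488 gene symbols of the deposited count table were examined, by abundance and by gene class. The 6 libraries at 0.5 and 1 ng lay outside the comparison and served to set each gene's abundance.

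Both groups were described as different amounts of RNA extracted from the spleen of mice, strain C57, aged 6 to 18 weeks, with no treatment named. The sample characteristics also name raw 264.7, a mouse macrophage cell line. Genes of other spleen cells were present in all 5 libraries. Ighm, the heavy chain constant region of immunoglobulin M, stood between 14599 and 19857 counts per 1000000 counts of the library (CPM). Every one of the 20 T cell, 18 B cell and 14 neutrophil marker genes examined had counts in every library, as did the beta globin Hbb-bs. The labels do not say whether the libraries of a group came from separate animals or from repeat dilutions of the same RNA, so all p-values measure only the spread between these libraries, which may be technical.

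In the protocol, polyadenylated RNA is copied from an oligo(dT) primer, the second strand is made, and the Tn5 transposase cuts the double-stranded cDNA and attaches adapters before amplification. As background, each RNA molecule of a small sample is either copied or lost before amplification, so a gene with few molecules can be missed in one tube and caught in another. Abundant messages, such as those of ribosomal proteins, globins and immunoglobulins in the spleen, are present in many copies. Libraries at 0.1 ng held 1962934 and 1737067 counts, and those at 5 ng held 6841726, 7492393 and 7908638. One count was worth 0.509 and 0.576 CPM at 0.1 ng and between 0.126 and 0.146 CPM at 5 ng. Between 57.9% and 70.7% of nonzero counts were even, as they would be if each mate were counted on its own. Intervals and floors given below cover counting error only.

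Of 84 tested cytosolic ribosomal protein genes, 74 fell at 0.1 ng. So did 6 of 12 immunoglobulin constant regions, 7 of 15 erythroid genes, globins among them, and 6 of 14 neutrophil genes. Of 9 tested predicted genes that resemble Gm10800, 8 rose. Of 13982 genes tested with edgeR's quasi-likelihood test, 1572 (11.2%) passed a Benjamini-Hochberg adjusted p of 0.05. They comprised 656 higher at 0.1 ng (4.69%) and 916 lower (6.55%), and 4603 genes had an unadjusted p under 0.05. CPM did not overlap between the groups for any of the 1572, against 50.9% of all genes tested, 21.4% higher and 29.6% lower at 0.1 ng. The median log2 fold change, 0.1 over 5 ng, was -0.07 over all genes tested.

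These calls rested on all 3 libraries of 5 ng. Without replicate 1, 2 or 3 of that group, edgeR called 1, 0 and 0 genes, while 2646, 2580 and 2527 had an unadjusted p under 0.05, and DESeq2 called 626, 648 and 600. The spread at 0.1 ng was wider than at 5 ng, with a biological coefficient of variation of 0.407 (n = 2) against 0.0812 (n = 3), and the test estimates one spread for both groups. Weighting each library by its own spread (voomWithQualityWeights) gave 592 genes, 461 higher and 131 lower, so the excess of lower genes turned into an excess of higher ones. Every call named below is from the edgeR fit of all 5 libraries.

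**Figure D1:**
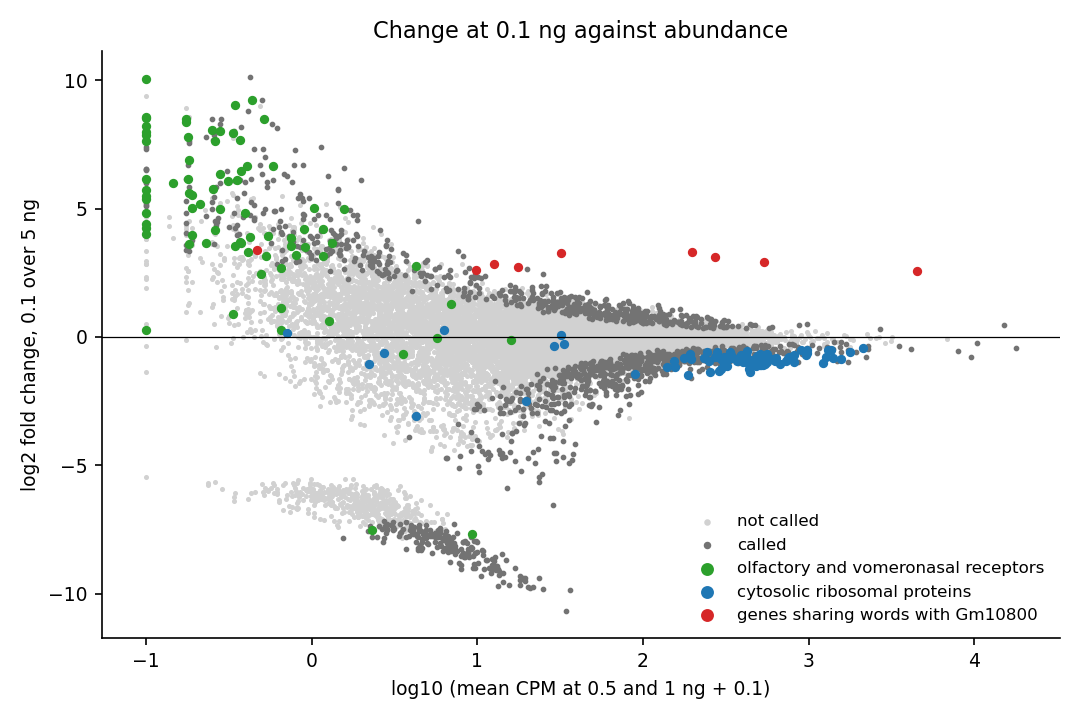
Each point is 1 of the 13982 genes tested. The horizontal axis is log10 of the mean CPM at 0.5 and 1 ng plus 0.1, and the vertical axis is the log2 fold change of 0.1 over 5 ng. Ribosomal protein genes (blue) lie mostly below 0 at high abundance, the genes sharing words with Gm10800 (red) above 2.5, and the odorant and vomeronasal receptors (green) mostly at the top left. Points below -5 are mostly genes with 0 counts in both libraries of 0.1 ng, whose fitted value depends on the prior count.

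How closely a gene at 0.1 ng matched 5 ng varied with its abundance. Of the 221 genes with at least 500 CPM at 0.5 and 1 ng, 8 rose and 91 fell (44.8% called), and 95.5% and 96.4% of them lay within 2-fold of the 5 ng mean in the libraries of 0.1 ng. Of 2168 genes with 100 to 500 CPM, 16.7% were called, 104 higher and 257 lower, and 93.9% and 93.8% lay within 2-fold. Among 5234 genes with 20 to 100 CPM, 9.90% were called, and 74.6% and 74.0% lay within 2-fold. Of 2966 genes with 5 to 20 CPM, 8.66% were called, and 49.7% and 48.6% lay within 2-fold. The median log2 fold change was between -0.23 and -0.10 in all 4 of these classes. It was 0.19 for genes with 1 to 5 CPM and 2.23 for those under 1 CPM, where 168 of 908 tested genes rose and none fell. A gene under 1 CPM reached the test only if it had counts in at least a few libraries, so its direction was partly set by the filter on low counts. With bins taken from the 5 libraries compared, 0 genes under 1 CPM were called, and 269 in place of 169 were called at 1 to 5 CPM.

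At equal total counts, fewer genes had at least 1 or at least 2 counts at 0.1 ng, and more had at least 5. Genes with at least 1 count numbered 13839 and 13946 at 0.1 ng against 17376, 17679 and 17617 at 5 ng. Reduced to 1737067 counts, the total of the smallest library, 13878 ± 96.0 (SD, n = 2) genes were expected at 0.1 ng and 15827 ± 55.2 (SD, n = 3) at 5 ng. The groups did not overlap, with a two-sided exact permutation p of 0.1, the smallest that 2 libraries against 3 allow. With at least 2 counts required, the means were 13644 and 14103. With at least 5 counts required the order turned, at 12061 for 0.1 ng and 11801 for 5 ng. The reduction drew counts singly, so if each mate was counted on its own, it split pairs, mainly at 5 ng. From at least 1 to at least 2 counts, the unreduced replicate 2 of 0.1 ng went from 13946 to 13787 genes. Replicate 1 of 5 ng, reduced, went from 15782 to 14091. How much of the difference at 1 count came from split pairs was not tested. In all, 51 counts and shares were compared by this permutation test, of which 41 reached the smallest p, so that the lowest adjusted p was 0.124 and no such comparison could pass 0.05.

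**Figure D2:**
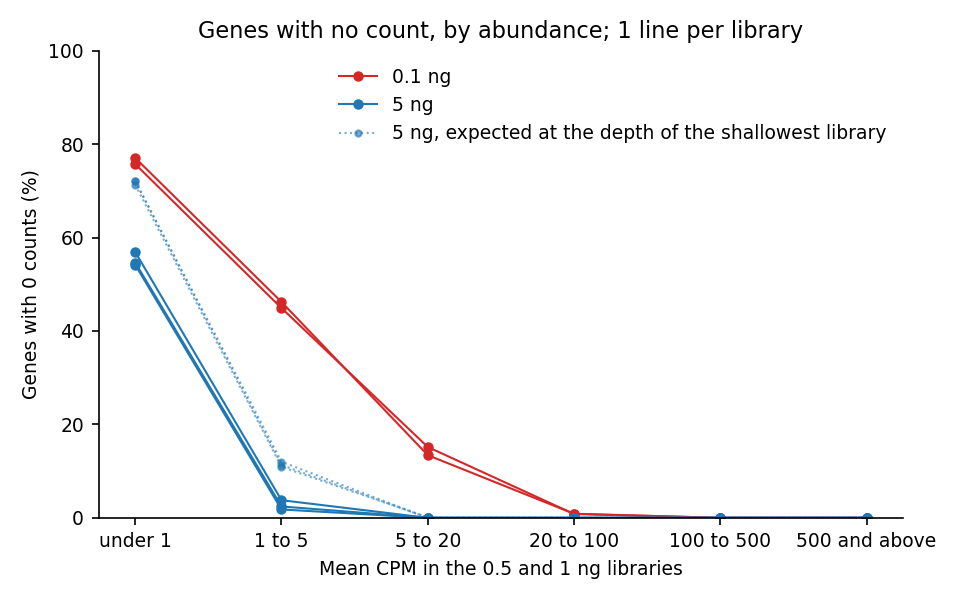
Percent of genes with 0 counts in each library (vertical axis), by mean CPM at 0.5 and 1 ng (horizontal axis). Solid lines are the 2 libraries of 0.1 ng (red) and the 3 of 5 ng (blue) at full depth. Dotted lines are the 5 ng libraries reduced to 1737067 counts, drawn singly. At 5 to 20 CPM, 13.4% and 15.2% of genes had no count at 0.1 ng, against 0 genes at 5 ng.

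The missing genes reached well into moderate abundance. Of the 2966 genes with 5 to 20 CPM, 398 and 450 had 0 counts in the libraries of 0.1 ng and 134 had 0 in both. None had 0 counts at 5 ng, where between 0.802 and 1.46 such genes were expected at the depth of the smallest library. That expectation drew counts singly and would be larger if mates counted on their own were drawn as pairs. Of the 5234 genes with 20 to 100 CPM, 46 and 43 had 0 counts and 7 had 0 in both. No gene with 100 CPM or more was missing from either library. Bins drawn from the 5 libraries compared gave 17 and 18 missing genes at 20 to 100 CPM. Seen from the 5 ng side, 7231 genes had at least 20 CPM in each of its 3 libraries, and 27 of them had 0 counts in each library of 0.1 ng.

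Rcc1, which encodes the guanine nucleotide exchange factor of the Ran GTPase on chromatin, was the single gene missing from both. It had 0 counts in both libraries of 0.1 ng and 37.1, 42.7 and 38.7 CPM at 5 ng. Set against the 3 counts that define the floor of the pooled group, it was at least 48.8-fold lower at 0.1 ng. If each fragment gave a count for each mate, a floor of 3 fragments would be more than 3 counts, and all bounds of this kind would be smaller. Genes at 0 in both libraries of 0.1 ng entered the test only through their counts at 5 ng, so their values are a description. Zcchc9, a zinc knuckle protein gene, stood at 0 and 0 CPM against 14.9, 27.4 and 23.8, at least 27.4-fold lower. Mrpl2, which encodes a protein of the large mitochondrial ribosomal subunit, stood at 0 and 0 against 22.7, 24.6 and 18.5 CPM, at least 26.9-fold lower. At 0.5 and 1 ng, these genes had means of 32.5 and 35.7 CPM (Rcc1), 40.4 and 31.4 (Zcchc9) and 26.7 and 23.03 (Mrpl2), so they were recorded at each higher input. Pdxk (pyridoxal kinase), Zdhhc14 (a palmitoyltransferase), Zscan21, Tbc1d8b, Lmna (nuclear lamins A and C), Blcap, Cd99l2, N4bp3, Phf11c and Taf9b followed the same pattern, each at least 19.7-fold to 26.2-fold lower. In all, 195 of the 916 genes called lower had 0 counts in both libraries of 0.1 ng.

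Other genes were caught in one library of 0.1 ng and missed in the other. Kdm5d, a Y-linked histone demethylase gene, had 16.3 and 0 CPM at 0.1 ng and 73.4, 63.4 and 78.6 at 5 ng (log2 fold change -3.14 ± 0.94 SE, edgeR adjusted p = 0.0791). Ncaph, a condensin subunit gene, had 67.8 and 0 CPM at 0.1 ng, one value above and one below the 33.2, 36.4 and 37.7 CPM at 5 ng (edgeR adjusted p = 0.957). Rfx5, a transcription factor gene for MHC class II promoters, had 0 and 32.8 CPM against 29.1, 35.1 and 32.7. For such genes a single library gave the direction. Ncaph was 0.85 higher on the log2 scale when replicate 2 of 0.1 ng was left out, with the remaining library assumed to vary like those of 5 ng. Flt3, the receptor tyrosine kinase of dendritic cell precursors, had 2.04 and 0 CPM against 24.6, 23.8 and 26.7, and fell (log2 fold change -4.57 ± 0.85 SE, edgeR adjusted p = 0.032). Pigo, an enzyme gene of the glycosylphosphatidylinositol anchor pathway, fell likewise from between 27.9 and 33.1 CPM to 0 and 2.30 CPM (edgeR adjusted p = 0.03).

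The 2 libraries of 0.1 ng differed from each other far more than those of 5 ng. Over 13713 genes with at least 1 CPM at 0.5 and 1 ng, 39.7% were more than 2-fold apart in CPM + 1 between the libraries of 0.1 ng, against 2.30% to 2.94% for the 3 pairs of 5 ng. The share was 57.4% at 5 to 20 CPM, 34.1% at 20 to 100, 8.67% at 100 to 500, and 0 of 221 genes at 500 CPM and above. For the pairs of 5 ng it was between 1.42% and 2.19% at 5 to 20 CPM, and at most 1 of 5234 genes at 20 to 100 CPM. In 98 genes replicate 1 of 0.1 ng had at least 20 CPM and replicate 2 none, and in 86 genes the reverse held, while no pair of 5 ng libraries had such a gene. Jtb stood at 77.4 and 2.30 CPM at 0.1 ng and at 60.9, 58.9 and 59.9 at 5 ng. Rab27a, a small GTPase gene of granule secretion, stood at 1.02 and 46.6 against 43.7, 46.7 and 60.4 CPM. Cacul1, at 69.8 and 4.03, and Tulp4, at 76.9 and 4.61 CPM, were split in the same way. A chi-square per degree of freedom of 16.8 for the pair of 0.1 ng and 3.19 to 3.56 for the pairs of 5 ng were measured, so no 2 libraries were treated as one. A pseudocount of 5 CPM lowered the share of genes past 2-fold at 0.1 ng to 26.9%.

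Messages of cytosolic ribosomal proteins, the structural proteins of the ribosome, took a smaller part of the library at 0.1 ng. Their share of counts was 2.96% and 2.81% at 0.1 ng and 4.90%, 4.81% and 4.85% at 5 ng, with means of 3.96% at 0.5 ng and 4.58% at 1 ng. The groups did not overlap (two-sided exact permutation p = 0.1, the smallest possible). Of 84 tested ribosomal protein genes among the 86 of the table, 74 fell and none rose, against 6.55% of all tested genes called lower. Their median log2 fold change was -0.84, compared with -0.07 over all genes tested, and the values of the 74 ran from -2.49 to -0.41. Of the 84, 81 lay below 0 with TMM factors, DESeq2 size factors and library sizes alone, and 64 to 78 of these genes were called lower in each fit that kept all 3 libraries of 5 ng.

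Within the ribosome, both subunits were affected. Rpl4 of the large subunit, with the smallest called fall, stood at 1753 and 1726 CPM at 0.1 ng against 2226, 2173 and 2341 at 5 ng (log2 fold change -0.41 ± 0.05 SE, edgeR adjusted p = 0.0149). Rplp0, the base of the ribosomal stalk, stood at 1414 and 1329 against 1993, 1963 and 2028 CPM (-0.59 ± 0.05 SE, edgeR adjusted p = 0.00635). Rpsa of the small subunit stood at 1076 and 928 against 1755, 1737 and 1722 CPM (-0.84 ± 0.07 SE, edgeR adjusted p = 0.00684). The next genes were chosen after their values were seen. Rpl41 stood at 230 and 208 CPM against 570, 539 and 515 (-1.35 ± 0.09 SE, edgeR adjusted p = 0.00575). Rps24 stood at 390 and 406 against 835, 782 and 802 CPM, a log2 fold change of -1.06 ± 0.07 SE. Rpl35a, at 75.4 and 75.4 against 204, 215 and 198 CPM, had a log2 fold change of -1.49 ± 0.11 SE. Of the 10 genes tested and not called, 8 lay under 40 CPM at 0.5 and 1 ng, and the other two were Rpl32 (-0.70 ± 0.17 SE, edgeR adjusted p = 0.0531) and Rps27a (-0.60 ± 0.22 SE, edgeR adjusted p = 0.119). Many ribosomal protein genes have near-identical processed pseudogenes, so the counting of single members is uncertain.

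Part of the translation factors and other abundant housekeeping genes also fell. The shares below are set beside all genes tested and are not matched for abundance. Among the 221 genes with at least 500 CPM at 0.5 and 1 ng, ribosomal protein genes included, 91 fell. Of 65 tested elongation and initiation factor genes, 16 fell (24.6%, against 6.55% of all genes tested) and none rose (median -0.29). Eef1a1, which delivers aminoacyl-tRNA to the ribosome, stood at 6507 and 5928 CPM against 8783, 8821 and 8834 (-0.55 ± 0.04 SE, edgeR adjusted p = 0.00595). Eef2, the translocation factor, stood at 3343 and 3509 against 4715, 4592 and 4597 CPM (-0.48 ± 0.04 SE, edgeR adjusted p = 0.00635). Of 79 tested nuclear genes of oxidative phosphorylation, 15 fell (19.0%) and none rose (median -0.59), among them Atp5a1 of ATP synthase (445 and 474 against 709, 680 and 655 CPM) and Cox4i1 of cytochrome c oxidase (100 and 95.6 against 175, 156 and 165 CPM). Of 16 actin cytoskeleton genes 9 fell (56.3%) and none rose. Tmsb4x, which encodes the actin monomer binding protein thymosin beta 4, stood at 1378 and 1449 CPM against 2311, 2332 and 2444 (-0.79 ± 0.05 SE, edgeR adjusted p = 0.00575). Actb, beta actin, stood at 3287 and 3403 against 3237, 3130 and 3257 CPM (0.01 ± 0.04 SE, edgeR adjusted p = 0.828).

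Glycolysis genes fell in 4 of 13 tested (Pkm, Eno1, Gpi1 and Hk1), with Ldha at 320 and 393 against 408, 372 and 379 CPM (edgeR adjusted p = 0.365). Of 38 proteasome subunit genes 3 fell (7.89%) and 1 rose, and of 77 mitochondrial ribosomal protein genes 5 fell (6.49%) and 1 rose. These shares of falls were near the 6.55% of all genes tested, but the medians, -0.33 and -0.46, lay below the -0.07 of all genes tested. The 2 lists held 0.287% and 0.155% of counts at 0.1 ng against 0.341% and 0.192% at 5 ng. Of 39 splicing factor genes 1 fell (Hnrnpr) and 1 rose, Srsf11, from 244, 273 and 252 CPM to 403 and 375 (0.56 ± 0.09 SE, edgeR adjusted p = 0.0256). The share of counts on this list was 1.06% ± 0.0397 (SD, n = 2) at 0.1 ng and 1.06% ± 0.0144 (SD, n = 3) at 5 ng. Of 23 cell cycle genes 2 fell, the licensing factor Mcm5 and the spindle checkpoint kinase Bub1, the latter from 24.0, 21.1 and 26.2 CPM to 2.55 and 5.76 (-2.57 ± 0.49 SE, edgeR adjusted p = 0.0336). The median of the cell cycle list was -0.39.

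**Figure D3:**
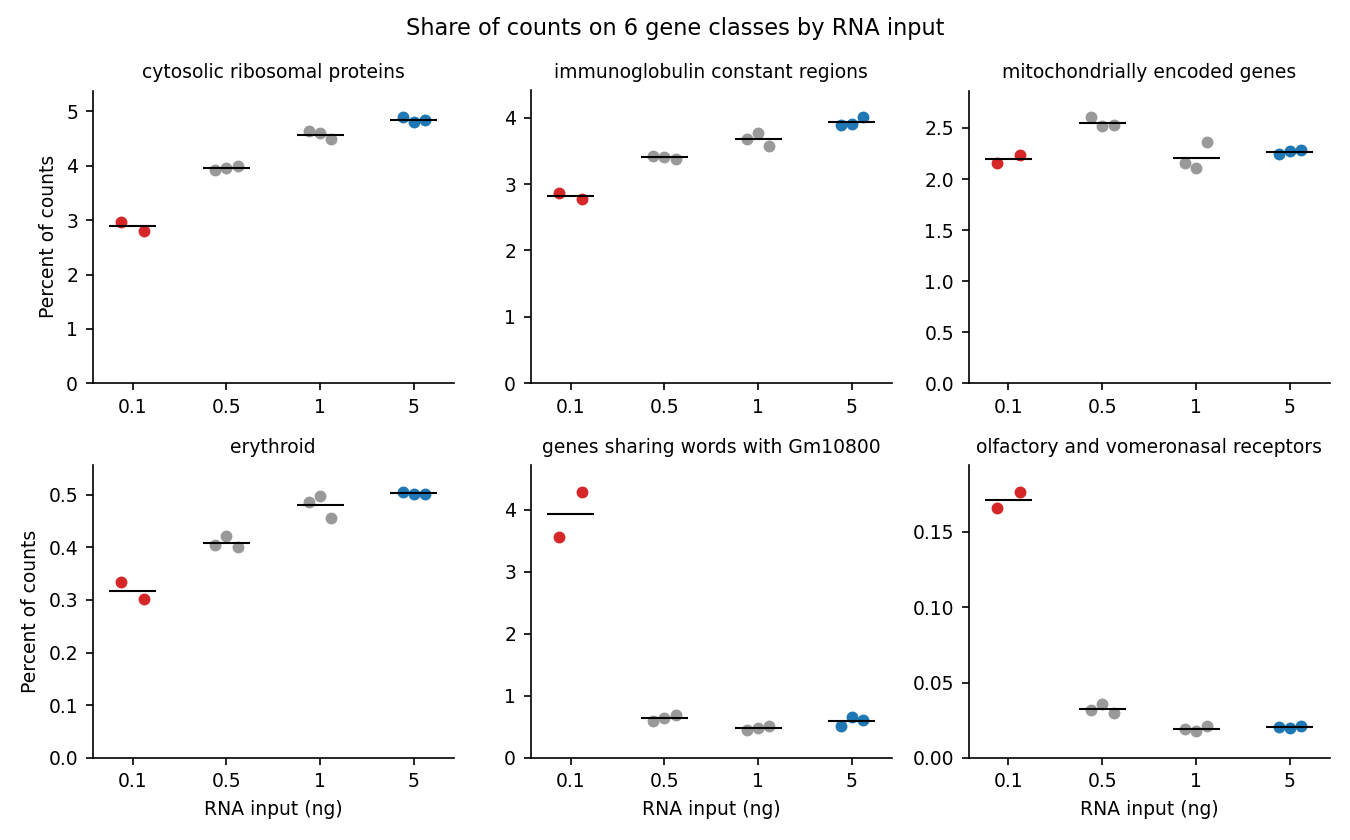
Percent of each library's counts (vertical axis) on 6 gene classes by RNA input in ng (horizontal axis). Each point is a library and each bar the mean of its group, with 2 libraries at 0.1 ng and 3 at each other input. Ribosomal protein, immunoglobulin constant region and erythroid shares are lowest at 0.1 ng. The shares of the genes sharing words with Gm10800 and of the receptors are highest there, and the mitochondrially encoded share at 0.1 ng lies close to that at 5 ng.

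Genes of specialised spleen cells were mostly lower or not called. Falls were also more frequent among abundant genes, with 91 of the 221 genes of at least 500 CPM at 0.5 and 1 ng. Ribosomal protein genes were part of these 221 and raised that share. The groups were set by the amount of extracted RNA, not by cells. Any difference between the RNA sources in cells of a type or in RNA per cell cannot be told apart from the input amount. The 12 immunoglobulin constant regions held 2.82% ± 0.0587 (SD, n = 2) of counts at 0.1 ng against 3.93% ± 0.0685 (SD, n = 3) at 5 ng, and 6 of them fell while none rose. Igkc, the kappa light chain constant region, stood at 6892 and 6677 CPM against 10787, 11331 and 11939 (-0.79 ± 0.05 SE, edgeR adjusted p = 0.00575). Ighm stood at 15236 and 14599 against 19577, 19482 and 19857 CPM (-0.44 ± 0.02 SE, edgeR adjusted p = 0.00575). Of 172 tested immunoglobulin variable genes, which resemble each other and are hard to count singly, 6 fell (3.49%) and none rose. That share of falls was smaller than the 6.55% of all genes tested, but their median log2 fold change was -0.57, against -0.07. The variable genes held 0.348% of counts at 0.1 ng against 0.467% at 5 ng, so as a sum they were lower. Of 18 B cell genes 3 fell, namely Cd79a and Cd79b, the signalling chains of the B cell receptor, and Ly6d. Ms4a1, which encodes CD20, stood at 1406 and 1174 against 1414, 1440 and 1455 CPM (edgeR adjusted p = 0.137). Of 10 plasma cell genes 3 fell, Jchain, Mzb1 and Creld2.

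Of 15 erythroid genes 7 fell and none rose, where 6.55% of all genes tested fell and 4.69% rose. The list's share of counts was 0.318% ± 0.0225 (SD, n = 2) at 0.1 ng against 0.503% ± 0.00264 (SD, n = 3) at 5 ng. Hbb-bs stood at 979 and 893 CPM against 1770, 1685 and 1731 (-0.93 ± 0.06 SE, edgeR adjusted p = 0.00575), with means of 1285 at 0.5 ng and 1660 at 1 ng. Hba-a1, an alpha globin gene with a near-identical copy, stood at 636 and 457 against 953, 1057 and 1091 CPM. Of 14 neutrophil genes 6 fell and none rose, including the calcium-binding S100a8 (496 and 465 against 925, 838 and 850 CPM) and S100a9 (541 and 569 against 970, 941 and 957 CPM).

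Macrophage, antigen presentation and T cell lists are read against the same 4.69% of all tested genes called higher and 6.55% called lower. These shares are not matched for abundance, and of the 221 genes with at least 500 CPM at 0.5 and 1 ng, ribosomal protein genes included, 91 fell. Of 16 macrophage and monocyte genes 5 fell and none rose, among them Lyz2, lysozyme, at 1063 and 1074 against 1359, 1350 and 1364 CPM (-0.39 ± 0.05 SE, edgeR adjusted p = 0.0149). Of 11 red pulp macrophage genes 4 fell and 1 rose. Of 10 MHC class II genes 4 fell, while Cd74, the invariant chain, stood at 6900 and 6710 against 7072, 6972 and 6939 CPM (edgeR adjusted p = 0.0826). Of 20 T cell genes Trac and Trbc2, the receptor constant regions, fell and the transcription factor gene Tcf7 rose, from 378, 356 and 341 CPM to 511 and 482 (0.43 ± 0.08 SE, edgeR adjusted p = 0.0311). Of 9 dendritic cell genes 2 fell, Flt3 and Ccr7. Itga2b, an integrin of megakaryocytes, rose from 26.9, 29.9 and 26.2 to 64.7 and 83.5 CPM, whereas the platelet glycoprotein gene Gp9 had 0 counts in both libraries of 0.1 ng against 4.97, 4.14 and 3.54 CPM. None of 10 tested stromal and endothelial genes was called.

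Regulatory, stress and channel lists were likewise set beside 4.69% of all tested genes called higher and 6.55% called lower. Of 9 tested chaperone genes 3 fell (33.3%), Hspa5, Hspa8 and Dnajb1, the last from 85.8, 85.3 and 83.3 CPM to 22.4 and 32.2 (-1.68 ± 0.22 SE, edgeR adjusted p = 0.0184). Of 17 immediate early genes Zfp36, which encodes the mRNA decay factor tristetraprolin, rose from 221, 217 and 221 CPM to 301 and 309, and Atf3 had 0 counts at 0.1 ng against 4.68, 4.54 and 4.30 CPM. Of 19 interferon response genes Oasl2 rose, from 30.1, 39.2 and 30.6 to 75.9 and 60.4 CPM, and Bst2 (tetherin) fell, from 45.02, 40.7 and 32.0 to 13.2 and 10.4 CPM. Of 41 tested replication-dependent histone genes 2 fell, and their median log2 fold change was -0.67, against -0.07 over all genes tested. Of 11 MHC class I genes 1 fell, H2-D1. Of 330 zinc finger genes 16 rose (4.85%) and 29 fell (8.79%), and of 274 solute carrier genes 10 rose (3.65%) and 14 fell (5.11%), shares near those of all genes. Of 37 collagen genes 2 rose, Col11a1 and Col28a1, from at most 1.07 CPM at 5 ng, and 1 fell, Col11a2, to 0 counts in both libraries of 0.1 ng. Of 52 potassium channel genes 4 rose and 2 fell. Among them, Kcnma1 and Kcnmb1 rose from at most 1.14 CPM at 5 ng, and Kcnj2 fell to 0 counts in both libraries of 0.1 ng. The collagen and channel genes named here passed the filter on low counts only through the group where they were high, so their calls are a description. No call was made among 10 keratin and 19 T cell receptor variable genes.

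The 13 mitochondrially encoded protein genes held 2.20% ± 0.0593 (SD, n = 2) of counts at 0.1 ng and 2.27% ± 0.0215 (SD, n = 3) at 5 ng, and changed in both directions. mt-Co1, of cytochrome c oxidase, fell from 10233, 10282 and 10277 CPM to 8847 and 8971 (-0.25 ± 0.02 SE, edgeR adjusted p = 0.0113). mt-Cytb fell by 0.33 on the log2 scale. mt-Nd5, of respiratory complex I, rose from 2399, 2519 and 2509 CPM to 3109 and 3283 (0.32 ± 0.05 SE, edgeR adjusted p = 0.0219), as did mt-Nd6 (0.51 ± 0.10 SE, edgeR adjusted p = 0.0332). mt-Nd6 lies on the other strand from mt-Nd5 and next to it, and the strand setting of the counting is not given in the sources used here. Lars2, the mitochondrial leucyl-tRNA synthetase encoded in the nucleus, was among the 8 genes with the most counts and rose from 9375, 11899 and 11432 to 15990 and 15303 CPM (0.47 ± 0.10 SE, edgeR adjusted p = 0.0389). At 0.5 and 1 ng its means were 15886 and 14393 CPM.

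Predicted genes that resemble Gm10800 took a larger part of the library at 0.1 ng. In GENCODE M21 transcripts of GRCm38, 12 genes of the table, Gm10800 included, shared at least 1 word of 25 bases with Gm10800. The first 150 bases of the transcripts of the 4 with the most counts are shown to let the shared text be seen. Capitals mark bases inside 25-base words shared with Gm10800 or, for Gm10800 itself, with any of the other 11 genes.
Gm10800: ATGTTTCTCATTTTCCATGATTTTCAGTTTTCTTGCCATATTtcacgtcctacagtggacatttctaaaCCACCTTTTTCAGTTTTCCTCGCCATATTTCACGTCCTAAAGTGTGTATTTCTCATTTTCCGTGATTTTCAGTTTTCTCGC
Gm21738: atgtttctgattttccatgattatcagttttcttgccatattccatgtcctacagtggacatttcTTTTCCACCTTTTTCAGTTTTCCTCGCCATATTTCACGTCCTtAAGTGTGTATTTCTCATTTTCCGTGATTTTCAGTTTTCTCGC
Gm10801: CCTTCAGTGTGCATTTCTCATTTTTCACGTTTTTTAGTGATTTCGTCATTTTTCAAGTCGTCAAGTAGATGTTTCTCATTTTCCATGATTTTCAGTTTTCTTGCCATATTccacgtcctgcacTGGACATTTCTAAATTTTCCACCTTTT
Gm10722: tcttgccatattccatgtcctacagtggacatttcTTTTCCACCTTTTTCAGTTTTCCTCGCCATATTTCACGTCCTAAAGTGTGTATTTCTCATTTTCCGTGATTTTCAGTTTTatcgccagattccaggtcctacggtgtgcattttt
Over their whole transcripts, 78.3% of the bases of Gm10800 (660 bases, chromosome 2), 60.8% of Gm21738 (681 bases, chromosome 14), 69.2% of Gm10801 (504 bases, chromosome 2) and 57.5% of Gm10722 (651 bases, chromosome 9) lay in such words. As background, this text resembles the pericentromeric major satellite repeat of the mouse, to which it was not matched here. Because of the shared words, reads cannot be assigned to single members with certainty, and the family is best read as a sum.

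As a sum, the 12 genes held 3.57% and 4.29% of counts at 0.1 ng and 0.510%, 0.658% and 0.618% at 5 ng. The means were 0.641% at 0.5 ng and 0.478% at 1 ng, so the 0.1 ng libraries stood apart from every higher input. The sum was 6.60 times higher at 0.1 than at 5 ng (two-sided exact permutation p = 0.1, the smallest possible). Of 9 members tested, 8 rose and the ninth, Gm10715, did not pass (edgeR adjusted p = 0.0647), with a median log2 fold change of 2.92. The background of genes called higher was 4.69%. Gm10800 stood at 28019 and 31275 CPM against 4071, 5438 and 4969 (2.57 ± 0.12 SE, edgeR adjusted p = 0.00575). Gm21738 stood at 3675 and 5243 against 477, 632 and 602 CPM (2.92 ± 0.19 SE, edgeR adjusted p = 0.00575). Gm10801 stood at 1633 and 2369 against 161, 208 and 218 CPM, and Gm10722 at 1782 and 3194 against 319, 218 and 304 CPM. Taken out of the totals, the family left the ribosomal protein share at 3.07% and 2.94% for 0.1 ng against 4.84% to 4.92% for 5 ng.

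The 10 genes with the most counts held 10.0% ± 0.207 (SD, n = 2) of each library at 0.1 ng and 8.41% ± 0.245 (SD, n = 3) at 5 ng. The first 1000 genes held 50.8% ± 0.0911 and 51.1% ± 0.138 (exact permutation p = 0.2 for the latter comparison).

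Receptors for odorants and pheromones, which nasal sensory neurons express one at a time, gained counts at 0.1 ng from a very low level. The 1464 such genes of the table together held 0.166% and 0.177% of counts at 0.1 ng and 0.0207%, 0.0201% and 0.0209% at 5 ng, which is 8.34 times more at 0.1 ng. The means were 0.0324% at 0.5 ng and 0.0193% at 1 ng. The number of these genes with a count was 347 and 332 at 0.1 ng and 343, 364 and 374 at 5 ng, at depths that differ between the groups. Only 77 passed the filter on low counts, and a receptor near 0 at 5 ng passed only where it was high at 0.1 ng, so the 33 called higher and 2 called lower among them are a description. Vmn2r65, a vomeronasal receptor gene, had 21.4 and 26.5 CPM against 0, 0 and 0.253. Vmn2r115 had 21.9 and 20.7 CPM against 0.292, 0.534 and 1.01. Olfr127 had 13.2 and 12.7 CPM against 0 counts at 5 ng, at least 96.2-fold higher. Vmn1r72 had 5.09 and 47.2 CPM against 0, so its level rested largely on 1 library.

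The largest rises of single genes were also found among genes at or near 0 at 5 ng. These genes entered the test only through their counts at 0.1 ng, so their values are a description. Il1rapl1, a synaptic adhesion gene of neurons, had 29.5 and 25.3 CPM at 0.1 ng and 0 counts in the 3 libraries of 5 ng, at least 204-fold higher. Otogl, an inner ear gene, had 11.7 and 18.4 CPM against 0 counts, at least 110.2-fold higher. The desmosome genes Dsc2 (16.3 and 46.1 against 0, 0 and 0.759 CPM) and Dsg1b (7.13 and 15.0 CPM against 0 counts) showed the same order of groups. So did the synaptic gene Nlgn1 (21.4 and 9.21 against 0.292, 0 and 0 CPM) and the potassium channel gene Kcnma1 (25.5 and 23.03 against 0.585, 1.07 and 1.14 CPM). Fign, at 0 and 43.8 CPM, and Olfr390, at 38.7 and 0 CPM, with 0 counts at 5 ng, were seen in 1 library alone. In all, 106 genes with 0 counts at 5 ng had counts in both libraries of 0.1 ng, and 575 in one of them. The 168 genes called higher with under 1 CPM at 0.5 and 1 ng had a median of 9.26 CPM at 0.1 ng against 0.183 CPM at 5 ng, and 31 of them were receptors.

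Longer genes lay higher at 0.1 ng. Exon length, the union of a gene's exons in GENCODE M21, was known for 13966 of the 13982 genes tested. Its median was 6109 bases for genes called higher, 3738 for those called lower and 4498 for all tested. The median log2 fold change rose with length, from -0.54 for genes under 1000 bases through -0.41 (1000 to 2000), -0.15 (2000 to 4000) and -0.01 (4000 to 8000) to 0.14 for 8000 bases and above. Among genes with 100 to 500 CPM, and without ribosomal protein genes, it was -0.50, -0.51, -0.21, -0.09 and 0.03 for the same length classes. Spearman's rho between length and log2 fold change was 0.17 across all genes and 0.22 across the 7616 with at least 20 CPM, and across genes that share libraries it is a description. GC content, taken from each gene's longest transcript, had medians of 46.0% for genes called higher, 50.9% for those called lower and 49.8% for all tested. Longer genes had lower GC (rho -0.25). Length and GC were not separated here.

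**Figure D4:**
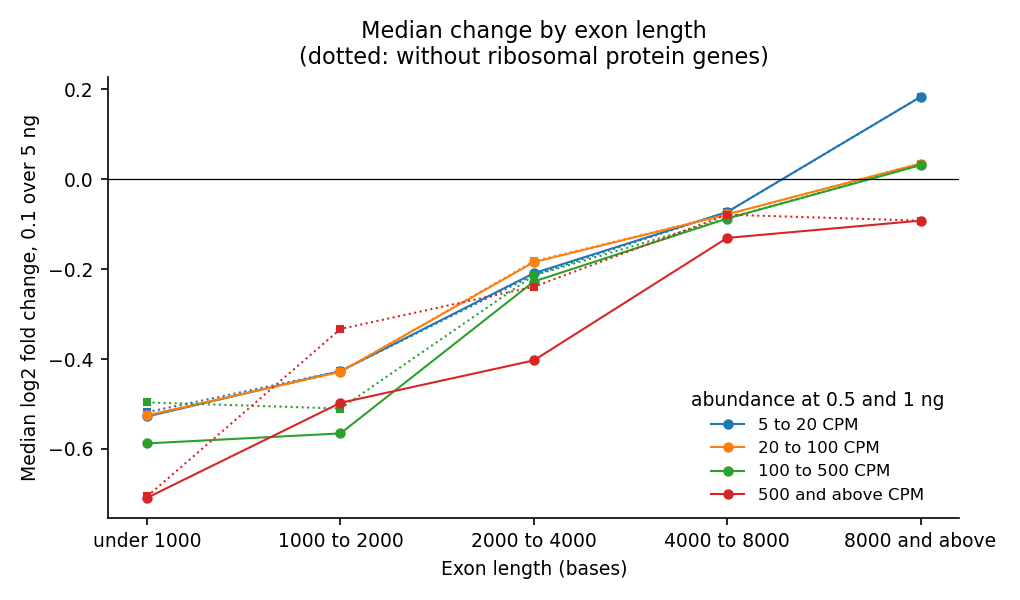
Median log2 fold change, 0.1 over 5 ng (vertical axis), by exon length in bases (horizontal axis), with 1 line for each of the 4 abundance classes of 5 CPM and above at 0.5 and 1 ng. Solid lines hold all tested genes and dotted lines leave out ribosomal protein genes. In these 4 classes, medians of all tested genes under 1000 bases lie between -0.71 and -0.53, and those of genes of 8000 bases and above between -0.09 and 0.18.

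The middle inputs, 0.5 against 1 ng with 3 libraries each, share no library with the comparison above. Of 11976 genes tested there in the same way, 90 (0.752%) were called higher and 83 (0.693%) lower at the smaller input. Of 81 ribosomal protein genes tested, 79 had a log2 fold change below 0 and 25 were called lower, with a median of -0.21. All 8 tested genes of the Gm10800 family lay above 0 (median 0.39), and 3 were called higher. Of 16 actin cytoskeleton genes 15, and of 77 oxidative phosphorylation genes 61, lay below 0, against 50.3% of all genes tested there. Of the 91 genes with at least 500 CPM that fell at 0.1 ng, 78 lay below 0 here, against 136 of all 221 genes of that abundance. Both sets include ribosomal protein genes. Over all abundances, 544 of the 910 tested genes that fell at 0.1 ng lay below 0 (59.8%). Of the 423 that rose, 246 lay above 0 (58.2%), against 49.7% of all genes. Among falls at 5 to 20 CPM, 91 of 186 lay below 0, and of 64 translation factor genes, 39 did. Of the 189 tested genes that had 0 counts in both libraries of 0.1 ng and were called lower, 84 lay below 0.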

How the data were processed

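RNA was measured in 5 libraries, 2 at 0.1 ng and 3 at 5 ng. The authors deposited whole-number counts per gene symbol, not normalized. Per the submitters' processing notes, HISAT2 2.1.0, featureCounts (version not given in the sources used here) and build mm8 were used. Totals ran from 1737067 to 7908638 counts per library.

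The counts were tested with edgeR 4.0.16 under R 4.3.3 (TMM factors, filterByExpr, quasi-likelihood test, Benjamini-Hochberg adjustment over all 13982 genes tested, threshold 0.05). The procedure was also run on simulated data in which all genes of a group had the same spread. The real libraries differ in this, so the simulation does not give the error rate of the calls reported. Log2 fold changes come from the edgeR fit of the real counts. Each standard error (SE) is the absolute log2 fold change divided by the square root of the test's F statistic. It rests on the spread estimated for both groups together. CPM are counts per 1000000 counts of the library. Numbers of genes at a common depth are exact hypergeometric expectations for counts drawn singly. A bound against 0 counts uses a floor of 3 counts over the group. Fold differences between replicates used a pseudocount of 1 CPM.

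Alternatives included DESeq2 1.42.0, limma 3.58.1 (voomWithQualityWeights), other scalings and filters, thinning, halved counts and leaving out each library. Exon length, GC and transcript sequences came from GENCODE M21 (GRCm38), in which 22391 of 22488 symbols were found. Because the build differs from mm8, no coordinates are given.

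The comparison, its 38 gene lists, and the rules were chosen with earlier results of these data known. Genes were named by rule. The rule took the 12 largest called rises and 12 largest called falls with non-overlapping groups and at least 10 CPM. It also took the members of each list with the most counts, called or not, the 8 genes with the most counts, the most abundant genes with 0 counts in a group, and those most different between the libraries of 0.1 ng. Genes named outside it are said to be chosen after their values were seen, or are the exceptions of a small set (Gm10715, Rpl32 and Rps27a).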

Additional observations from a re-analysis of the deposited data

How the results depend on the processing

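Against 1572 genes called in the fit reported, 656 higher and 916 lower, DESeq2 called 2963 (1502 and 1461), a fit of all 4 RNA groups 3395 (1365 and 2030), and voomWithQualityWeights 592 (461 and 131). Thinning each library to the smallest total left 583 genes lower, and testing without a filter left 395 higher. DESeq2 size factors (1526), library sizes alone (1547) and halved counts (1879) stayed within 1.5 times. Leaving out 1 library gave 0 to 8075 calls, 0 to 3416 of them higher and 0 to 4659 lower. Most came without a library of 0.1 ng, where the lone library left is assumed to vary like those of 5 ng, and 0 to 1 without a library of 5 ng. Ribosomal protein genes called lower then numbered 0 to 78, and genes of the Gm10800 family called higher 0 to 11. DESeq2, added after seeing the data, called 626, 648 and 600 genes without 5 ng replicate 1, 2 and 3 (338, 353 and 318 higher, 288, 295 and 282 lower). Of the 1572 genes, 1571 were called by DESeq2 and 496 by voomWithQualityWeights. None of those tested changed sign under any alternative fit. Because their groups did not overlap in CPM, a change of sign was hardly possible, so this adds no support.

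Same-numbered libraries showed no clear common deviation (correlations of residuals -0.02 and -0.01). This cannot decide whether the numbers pair them, because residuals of the lowest input's libraries mirror each other and their spread was wide. With the replicate block 392 genes were called, 77 higher and 315 lower.

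The difference in genes detected at a common depth became 259.5 more at 0.1 ng with at least 5 counts required. Bins from the 5 libraries compared gave 0 in place of 168 calls under 1 CPM and 269 in place of 169 at 1 to 5 CPM. Genes past 2-fold between the libraries of 0.1 ng were 40.9% with a pseudocount of 0.5 CPM and 26.9% with 5 CPM, in place of 39.7%. Among the named genes, 82 lost their call with voomWithQualityWeights and 65 with the replicate block. Without a library of 5 ng, 54 to 55 of the named genes lost their call under DESeq2 and 136 to 137 under edgeR. Of 215 named genes with a test, 6 changed sign with a call when a library of 0.1 ng was left out. Without replicate 1 or 2, their log2 fold changes were 1.17 and -1.64 (Hist2h2be), 0.33 and -0.23 (Hnrnpu), -10.75 and 0.85 (Ncaph), -3.38 and 0.68 (Tulp4), -0.996 and 0.97 (Mrpl3), and -0.37 and 0.43 (Psmb9). The cause was not tested. At 0.1 ng the floor of 3 counts lies at 1.53 and 1.73 CPM, so lower levels are not measurable in 1 library.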
